A study of Mus musculus with 11 samples.

Results

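Trnp1, Podxl2, Rasd2 and Diras2 are 4 of the 22619 genes in a count table of SMB21, a mouse medulloblastoma line. They were picked because their levels, in CPM (read counts scaled to a common library size), were higher in the 2 libraries of sonidegib-treated cells than in the libraries of drug-resistant clones. That contrast is therefore described below and not tested. The label holds in full for 3 of the 4 genes: Diras2 was higher in 1 library of an Ofd1-mutant clone than in 1 of the sonidegib libraries.

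The cells carry a Ptch1 mutation (strain background Ptch1tm1Mps/J, labelled Adult) and were grown as neurospheres, and all 4 groups share this background. The groups were parental cells after 24 h of sonidegib (n = 2), Ofd1-mutant clones (n = 4 libraries), Sufu-mutant clones (n = 2) and untreated parental cells (n = 3). Clone R14 gave Ofd1 replicates 1 and 2, clone R16 gave replicate 3 and clone R25 gave replicate 4. Clone R13 is Sufu replicate 1 and clone R1 is Sufu replicate 2. The clones were found in a transposon screen, and whether they were kept with drug is not stated in the labels. The labels call the sonidegib libraries, the R14 pair and the parental libraries biological replicates, without saying what was repeated, so p-values measure the spread between these libraries only.

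In Hedgehog signalling the receptor Ptch1 holds back Smoothened, and loss of Ptch1 lets Smoothened drive the Gli transcription factors, which keeps granule neuron progenitors dividing. Sonidegib inhibits Smoothened. Sufu binds and restrains Gli proteins, and Ofd1 is a centriole protein needed for the primary cilium, through which Gli proteins pass, so both act below Smoothened.

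Libraries held 24308451 to 38241595 counts. Ofd1 stood at 9.30 to 23.3 CPM in the Ofd1 mutants against 35.3 to 42.8 CPM in parental cells, and Sufu at 2.79 and 17.8 CPM in the Sufu mutants against 27.6 to 29.5 CPM. Sufu was also below the parental range in the other groups, at 5.54 and 24.8 CPM with sonidegib and 11.99 to 19.3 CPM in the Ofd1 mutants, so one Sufu mutant library lay inside the Ofd1-mutant range. The granule lineage markers Atoh1, Barhl1, Zic1, Zic2 and Pax6, which fit the labelled cell type, were above 73 CPM in every library. Sonidegib replicate 2 stood apart, with less signal from long transcripts: its deviations from the median library had a correlation of -0.456 with log2 transcript length across 10357 genes, against -0.0758 to 0.154 in the other 10 libraries. Parental replicate 3 stood apart too, since it differed from parental replicates 1 and 2 by an SD of 0.511 and 0.518 (log2, across 10941 genes), while those 2 differed from each other by 0.209. The 2 sonidegib libraries differed by 0.827.

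The 4 genes code for proteins of unlike kinds. Trnp1 is a small nuclear protein of neural progenitors that affects whether they keep dividing in the developing mouse cortex. Podxl2, or endoglycan, is a transmembrane sialomucin of the CD34 family. Rasd2, or Rhes, is a Ras-like GTPase known from the striatum, and Diras2 is a Ras-family GTPase of the brain. Because all 4 were high in the same libraries, the 250 bases before the annotated start of each are shown, from RefSeq promoter windows on GRCm38.p6, for 4 of 4 genes. Podxl2 has 3 listed starts, of which the most upstream is shown. The windows lie at chr4:133498551-133498800 (minus strand) for Trnp1, chr6:88875047-88875296 (minus) for Podxl2, chr8:75213694-75213943 (plus) for Rasd2 and chr13:52530837-52531086 (minus) for Diras2. Capitals mark matches, on either strand, to the CCAAT box, to the GC box letters GGGCGG and to the E-box letters CAGCTG.
Trnp1: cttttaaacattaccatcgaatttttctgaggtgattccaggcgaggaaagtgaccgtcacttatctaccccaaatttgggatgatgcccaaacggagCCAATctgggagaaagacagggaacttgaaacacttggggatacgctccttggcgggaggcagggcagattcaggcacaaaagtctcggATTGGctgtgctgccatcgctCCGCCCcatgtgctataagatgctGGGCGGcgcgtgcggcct
Podxl2: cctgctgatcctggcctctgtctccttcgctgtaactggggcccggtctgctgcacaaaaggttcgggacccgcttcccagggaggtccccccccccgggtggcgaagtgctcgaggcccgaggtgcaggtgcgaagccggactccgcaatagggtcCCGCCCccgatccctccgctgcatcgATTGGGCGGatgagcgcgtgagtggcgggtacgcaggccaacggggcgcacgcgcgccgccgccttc
Rasd2: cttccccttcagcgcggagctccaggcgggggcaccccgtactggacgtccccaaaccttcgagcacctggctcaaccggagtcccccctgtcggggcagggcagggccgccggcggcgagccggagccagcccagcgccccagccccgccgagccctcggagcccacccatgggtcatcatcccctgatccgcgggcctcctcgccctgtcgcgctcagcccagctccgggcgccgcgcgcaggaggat
Diras2: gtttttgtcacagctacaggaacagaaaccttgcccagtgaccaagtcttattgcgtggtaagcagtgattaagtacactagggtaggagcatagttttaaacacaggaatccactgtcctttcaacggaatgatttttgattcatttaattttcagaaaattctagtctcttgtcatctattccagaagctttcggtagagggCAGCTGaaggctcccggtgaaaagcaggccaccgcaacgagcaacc

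The Gli binding sequence GACCACCCA was in none of these windows, on either strand, and in 0.225% of all 32851 RefSeq windows of the same length. CCAAT occurred 2 times before Trnp1 and once before Podxl2, and 33.8% of all windows hold it. GGGCGG occurred 2 times before each of Trnp1 and Podxl2, against 32.7% of windows with at least 1. In Podxl2 one GGGCGG overlaps the CCAAT, which reads as ATTGG on the printed strand. Rasd2 and Diras2 held neither, and Diras2 held 1 CAGCTG E-box, found in 13.0% of windows. CAGATG and TATAAA, found in 14.4% and 12.4% of windows, were in none of the 4. The windows held 13 CG dinucleotides for Trnp1, 27 for Podxl2, 27 for Rasd2 and 6 for Diras2, where the median window holds 6. These matches describe the letters only.

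Trnp1 had the largest ratio of the 4 between the groups that chose it. It stood at 85.6 and 124 CPM in sonidegib replicates 1 and 2, at 17.9, 16.6, 12.8 and 12.08 CPM in Ofd1 replicates 1 to 4, at 11.96 and 8.54 CPM in Sufu replicates 1 and 2, and at 23.0, 21.8 and 25.6 CPM in the 3 untreated parental libraries. No group overlapped another: sonidegib was highest, then parental, then Ofd1 and then Sufu. The lowest Ofd1 library was at 12.08 CPM and the highest Sufu library at 11.96 CPM. Without overlap, sonidegib lay above parental for 18% of genes, Ofd1 below parental for 6.95% and Ofd1 above Sufu for 9.42%. The share of genes with all 4 groups apart was not computed. The mean was 105 ± 27.5 CPM (SD, n = 2) with sonidegib and 13.3 CPM over the 6 clone libraries, a ratio of 7.89.

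Podxl2 also kept the 4 groups apart, in a different order. It stood at 154 and 190 CPM in the sonidegib libraries, at 47.9, 45.5, 42.8 and 49.5 CPM in the Ofd1 libraries, at 56.6 and 63.4 CPM in the Sufu libraries, and at 78.8, 76.0 and 78.4 CPM in the parental libraries. Sonidegib was highest, then parental, and the Ofd1 clones were the lowest, below both Sufu clones. Without overlap, sonidegib lay above parental for 18% of genes, Sufu below parental for 13.8% and Ofd1 below Sufu for 8.91%. Here too the share with all 4 groups apart was not computed. Its spread within groups was the smallest of the 4 genes in parental cells, with a coefficient of variation of 1.97%, and 6.29% in the Ofd1 clones. The sonidegib mean was 172 ± 25.8 CPM (n = 2) against 51.0 CPM over the clones, a ratio of 3.37.

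By group means, Rasd2 was the most abundant of the 4 per transcript length. It stood at 323 and 275 CPM in the sonidegib libraries, at 92.5, 83.4, 81.3 and 95.3 CPM in the Ofd1 libraries, at 54.1 and 61.9 CPM in the Sufu libraries, and at 79.5, 88.4 and 28.0 CPM in the parental libraries. Both sonidegib libraries were above all others, as for 9.75% of 14306 genes. The Ofd1 libraries were all above the Sufu libraries, as for 9.42% of 14026 genes. The parental group overlapped both clone classes, since replicate 3 was below every clone and replicates 1 and 2 lay among the Ofd1 libraries or just below them. Rasd2 is thus low in the clones relative to sonidegib and near the untreated level in them. The sonidegib mean was 299 ± 33.9 CPM (n = 2) against 78.1 CPM over the clones, a ratio of 3.83.

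Diras2 had the largest ratio of the 4 genes between the clone classes. It stood at 67.0 and 92.4 CPM in the sonidegib libraries, at 72.5, 47.4, 14.9 and 31.7 CPM in the Ofd1 libraries, at 7.52 and 7.78 CPM in the Sufu libraries, and at 32.5, 37.5 and 32.3 CPM in the parental libraries. The Sufu clones were far below every other library, while the Ofd1 libraries ran from below to above the parental cells. Within the Ofd1 class the level followed no single value, with 59.9 CPM as the mean of the R14 pair, 14.9 CPM in R16 and 31.7 CPM in R25, a 4.03-fold range across 3 clones. The 2 R14 libraries differed from each other by 72.5 against 47.4 CPM. The sonidegib mean was 79.7 ± 17.9 CPM (n = 2) against 30.3 CPM over the clones, a ratio of 2.63, and the lowest sonidegib library lay 5.46 CPM below the highest clone library.

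**Figure D1:**
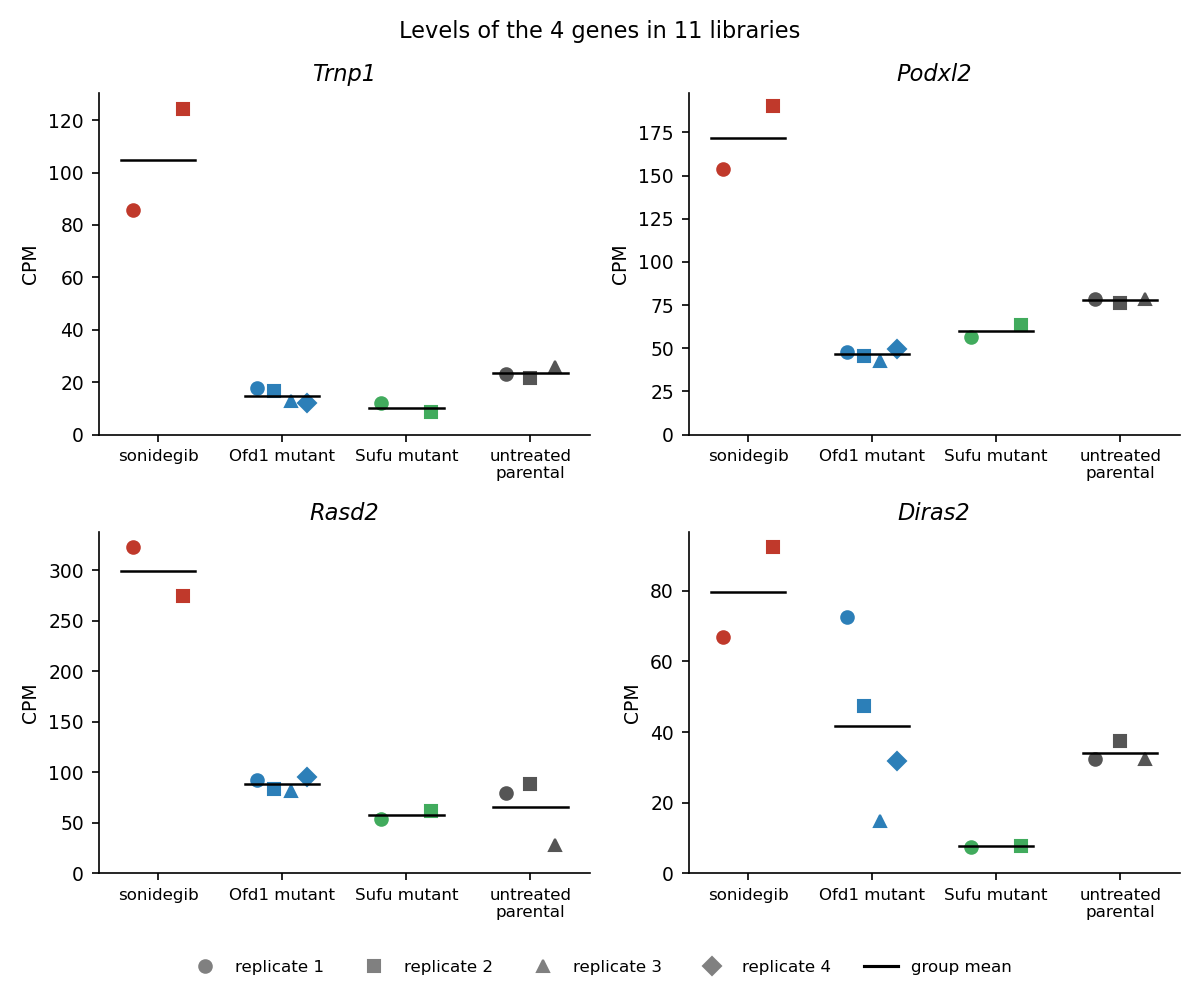
Levels of Trnp1, Podxl2, Rasd2 and Diras2 in CPM (vertical axes, starting at 0) in each of 11 libraries, by group from sonidegib to untreated parental cells; points are libraries, with a symbol per replicate, and lines are group means. Sonidegib libraries are highest except for Diras2, where Ofd1 replicate 1 at 72.5 CPM is above sonidegib replicate 1 at 67.0 CPM, and parental replicate 3 is low for Rasd2 at 28.0 CPM.

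For 3 of the 4 genes both sonidegib libraries were above all 6 clone libraries. The same holds for 14.3% of 14306 genes, and since this contrast chose the genes nothing is read from the count. Per kilobase of exon, the sonidegib means were 94.2 CPM for Rasd2, 63.5 for Trnp1, 29.9 for Podxl2 and 16.7 for Diras2. In untreated parental cells the means were 20.6 for Rasd2, 14.2 for Trnp1, 13.5 for Podxl2 and 7.12 for Diras2, the same order. The order differed in parental replicate 3, where Rasd2 at 8.83 was below Trnp1 at 15.5 and Podxl2 at 13.6.

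The line itself was compared with and without 24 h of the inhibitor. All 4 had higher levels with sonidegib and did not overlap the parental libraries, as did 18% of 13809 genes in the same direction. Rasd2 averaged 299 CPM with sonidegib and 65.3 ± 32.6 CPM (n = 3) in untreated cells, which differ by 2.19 ± 0.46 (SE) on the log2 scale. Trnp1 averaged 105 CPM with sonidegib and 23.5 ± 1.98 CPM untreated, a log2 difference of 2.16 ± 0.23. Diras2 was at 1.22 ± 0.22 and Podxl2 at 1.14 ± 0.19 on the same scale. By size of the log2 difference Rasd2 and Trnp1 were in places 60 and 64 of 13809 genes, Diras2 in place 450 and Podxl2 in place 565.

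None of the 4 passed the edgeR quasi-likelihood test over all genes, with adjusted p of 0.0531 for Trnp1, 0.0884 for Podxl2, 0.105 for Diras2 and 0.130 for Rasd2. The sonidegib libraries were among those that chose the genes, so these p are not independent of the choice. By that test 0.0652% of 13809 genes changed. At an unadjusted p under 0.05 the count of higher genes was 4 of 4, where 7.18% of genes passed in that direction, and with DESeq2 it was also 4 of 4, where 1.54% did. Without sonidegib replicate 2, the library with the length trend, none of the 4 passed (adjusted p from 0.131 to 0.293), nor without any 1 parental library (0.235 to 0.441). Without sonidegib replicate 1 Trnp1, Podxl2 and Diras2 passed, at log2 differences of 2.36, 1.25 and 1.40, in a fit that rests on replicate 2 alone and called 3263 genes.

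**Figure D2:**
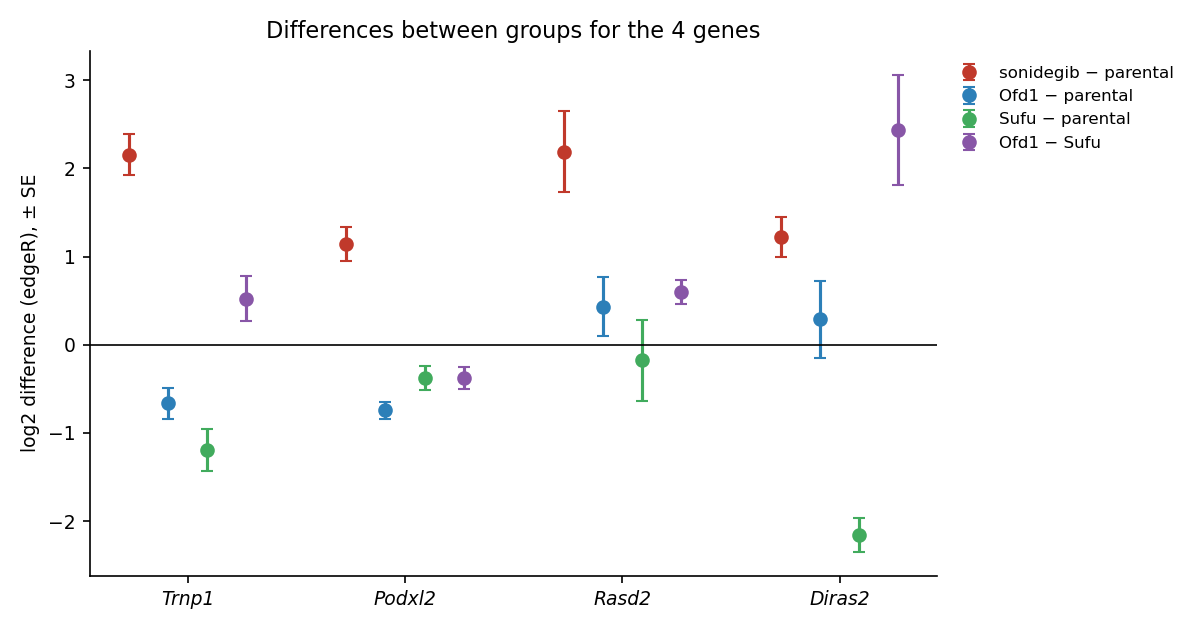
Log2 differences from edgeR (vertical axis) with SE bars for the 4 genes in 4 comparisons: sonidegib, Ofd1-mutant and Sufu-mutant libraries each minus untreated parental libraries, and Ofd1 minus Sufu. The sonidegib points lie between 1.14 and 2.19, and the Sufu point for Diras2 lies at -2.16.

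Of the 4 genes, Trnp1 has the shortest transcript and moved most when the length trend of sonidegib replicate 2 was removed. Its exons span 1654 bases, with 6.98% of genes shorter, while Rasd2 has 3176, Diras2 4786 and Podxl2 5749 bases, and the median gene 4720. In replicate 2 Trnp1 was 2.36 above the parental mean on the log2(CPM + 1) scale, and 1.68 with the trend on length removed from each library. In replicate 1, which showed no such trend, the values were 1.83 and 1.84. Rasd2 in replicate 2 was at 2.22 as measured and 1.97 with the trend removed, and in replicate 1 at 2.45 and 2.44. Podxl2 and Diras2 in replicate 2 were at 1.28 and 1.42 as measured, and at 1.43 and 1.44 with the trend removed. All 4 genes were therefore above the parental mean in both sonidegib libraries with and without this step.

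**Figure D3:**
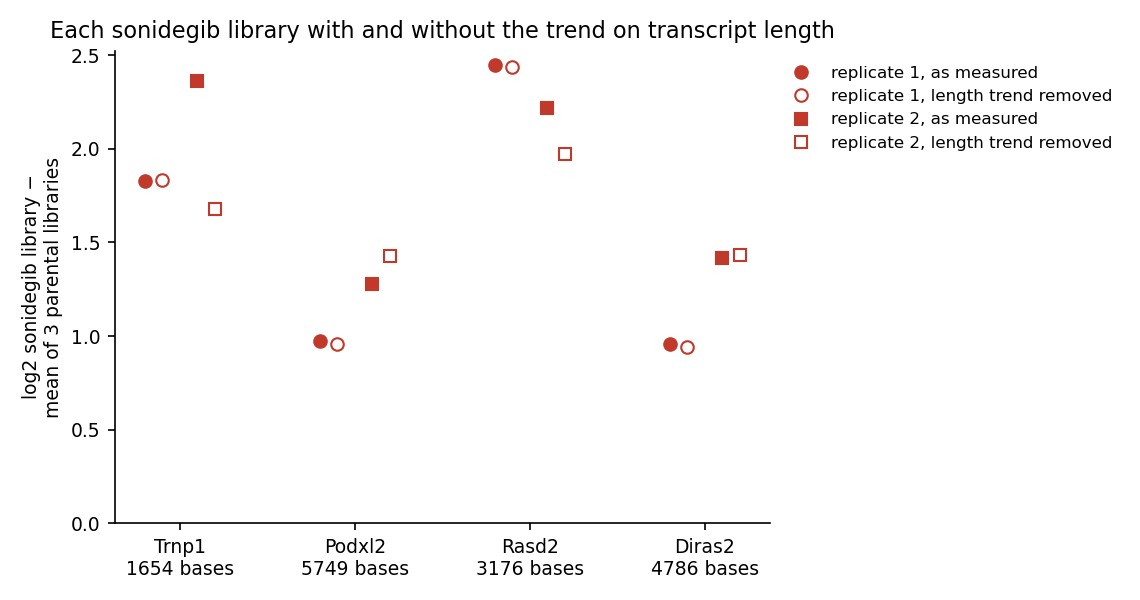
Log2(CPM + 1) of each sonidegib library minus the mean of 3 untreated parental libraries (vertical axis, starting at 0) for the 4 genes, named with their exon length; filled points are as measured and open points have the trend on transcript length removed. Trnp1 in replicate 2 moves by the most, to 1.68 from 2.36, and replicate 1 barely moves.

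The size of the Rasd2 difference moved with the parental library it was set against. Sonidegib replicate 1 against parental replicates 1 and 2 gave log2 differences of 1.93 for Rasd2, 1.89 for Trnp1, 0.98 for Podxl2 and 0.92 for Diras2. Sonidegib replicate 2 against parental replicate 3 gave 3.25, 2.24, 1.27 and 1.49. With a single sonidegib library each, these have no test. Without parental replicate 3 the edgeR value of Rasd2 was 1.80.

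Levels in sonidegib cells moved beside those of other gene groups. The 25 cell cycle genes summed to 2578 to 3102 CPM with sonidegib against 5725 to 7411 CPM in parental cells, and the 10 granule lineage genes to 4039 to 4313 against 2510 to 2812 CPM. Cells were measured in bulk, so fewer cells of a type and less RNA per cell cannot be told apart. All 8 astrocyte markers together summed to 501 to 888 CPM with sonidegib, against 388 to 637 CPM, with the water channel gene Aqp4 at 0 counts in both groups. Of the 6 astrocyte markers tested 3 had a positive and 3 a negative log2 difference with sonidegib. None passed in edgeR, where 0.0652% of all genes did. The intermediate filament gene Gfap averaged 103 against 21.7 CPM, and the connexin gene Gja1 4.25 against 6.08 CPM. The 9 oligodendrocyte markers summed to 60.9 to 89.1 against 156 to 376 CPM, mostly Pdgfra, and Mag was at 0 in every library. Microglial and macrophage, fibroblast and pericyte, and endothelial markers summed to at most 2.15, 0.834 and 1.83 CPM in the sonidegib libraries. In the Ofd1 clones the astrocyte markers summed to 213 to 365 CPM and the oligodendrocyte markers to 236 to 428 CPM, and in the Sufu clones to 333 to 417 CPM and 204 to 489 CPM. The part of these shifts in the levels of the 4 genes was not tested.

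Ofd1-mutant clones against parental cells compares one class of resistant clones with the line they came from. Podxl2 fell, at 46.5 ± 2.92 CPM (n = 4) in Ofd1 clones against 77.7 ± 1.53 CPM (n = 3) in parental cells, or -0.74 ± 0.10 on the log2 scale (edgeR adjusted p = 0.0402). It was the only one of the 4 to pass, where 0.363% of 13779 genes did, and the clone libraries took part in the choice. The call was lost when the R14 pair was summed to 1 library (adjusted p = 0.0879), when all 11 libraries were fitted together (0.0632), and without parental replicate 1 or 2 or any of Ofd1 replicates 1, 2 and 3 (0.0672 to 0.245). Over all 12 alternatives with a test the adjusted p ran from 1.50e-09 to 0.245, at log2 differences that stayed between -0.77 and -0.70.

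Trnp1 averaged 14.8 ± 2.83 CPM in Ofd1 clones and 23.5 ± 1.98 CPM in parental cells, or -0.66 ± 0.18 on the log2 scale (adjusted p = 0.153). All 4 Ofd1 libraries were below all 3 parental libraries for Trnp1 and Podxl2, as for 6.95% of genes in this direction. Rasd2 averaged 88.1 ± 6.83 against 65.3 ± 32.6 CPM, a log2 difference of 0.43 ± 0.33 (adjusted p = 0.625), and 0.06 without parental replicate 3. Diras2 averaged 41.6 ± 24.5 against 34.1 ± 2.95 CPM, a log2 difference of 0.29 ± 0.44 (adjusted p = 0.825). The Diras2 difference was 0.06 with the R14 pair summed to 1 library and -0.12 without Ofd1 replicate 1, so it has no set direction in this class. At an unadjusted p under 0.05 the count of lower genes was 2 of 4, Podxl2 and Trnp1, where 6.2% of genes passed that way. DESeq2 called the same 2 lower, where it called 2.33%. Low levels in these clone libraries chose the genes, so nothing is read from these counts. The R14 pair counts as 2 libraries in them.

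The Sufu-mutant clones were set against the same parental libraries. Diras2 averaged 7.65 ± 0.184 CPM (n = 2) in Sufu clones and 34.1 ± 2.95 CPM (n = 3) in parental cells, or -2.16 ± 0.19 on the log2 scale. By p it was in place 3 of 13854 genes, with an adjusted p of 0.0898. Trnp1 averaged 10.2 ± 2.42 against 23.5 ± 1.98 CPM, at -1.19 ± 0.23 (adjusted p = 0.283), and Podxl2 60.0 ± 4.85 against 77.7 ± 1.53 CPM, at -0.37 ± 0.13 (0.483). Rasd2 averaged 58.0 ± 5.52 against 65.3 ± 32.6 CPM, at -0.17 ± 0.46 (0.923), and 0.11 without parental replicate 2.

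Over all genes 0 of 4 passed in edgeR in the Sufu clones, where 0% of genes did. At an unadjusted p under 0.05 the count of lower genes was 3 of 4, where 4.75% of genes passed in that direction, and DESeq2 called 2 lower, Diras2 and Trnp1, where it called 1.34%. Both Sufu libraries were below all 3 parental libraries for Trnp1, Podxl2 and Diras2, as for 13.8% of genes. The genes were picked for low levels in these clone libraries, so nothing is read from these counts. These comparisons and the sonidegib one share the parental libraries, so their values are set side by side and not correlated.

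Ofd1 against Sufu clones is a contrast the rule did not make, but the rule used the levels in these same clone libraries. The genes and tests were also chosen with earlier results known, so the p here are not independent of the choice. Diras2 averaged 41.6 ± 24.5 CPM over the Ofd1 libraries (n = 4, from 3 clones) and 7.65 ± 0.184 CPM (n = 2) in Sufu clones. The log2 difference was 2.44 ± 0.62 (edgeR adjusted p = 0.400). Taken over the 3 Ofd1 clones the mean was 35.5 ± 22.8 CPM. Rasd2 was at 0.60 ± 0.14 (adjusted p = 0.322), Trnp1 at 0.52 ± 0.26 (0.595) and Podxl2 at -0.38 ± 0.13 (0.478). For 3 genes the 4 Ofd1 libraries were all above both Sufu libraries, as for 9.42% of 14026 genes, and for Podxl2 all below, as for 8.91%. None of the 4 passed in edgeR, where 0.00713% of genes did, while 3 had an unadjusted p under 0.05 (8.93% of genes) and DESeq2 called 2 higher, Diras2 and Rasd2 (1.07% of genes). All of these count the R14 pair as 2 libraries. With the pair summed to 1 library edgeR gave 2.21 for Diras2 (adjusted p = 0.685) and 0.59 for Rasd2 (0.657). Trnp1 was then at 0.44 (0.770) and Podxl2 at -0.38 (0.696). Both classes had Trnp1 below the parental level. The libraries of the 2 classes were apart for each of the 4 genes, and Diras2 had the largest log2 difference between them.

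Podxl2 and its nearest relative were at opposite ends in the sonidegib libraries. Podxl, or podocalyxin, the other CD34-family sialomucin with a level in these cells, stood at 24.3 and 10.2 CPM with sonidegib against 52.6, 62.4 and 66.2 CPM in parental cells, a log2 difference of -1.81 ± 0.40 with an edgeR adjusted p of 0.140. In the Ofd1 clones it ran from 59.8 to 144 CPM and in the Sufu clones it was at 68.2 and 92.0 CPM. Podxl was thus lowest in the libraries where Podxl2 was highest. Per kilobase of exon Podxl2 averaged 29.9 CPM and Podxl 3.14 CPM with sonidegib, against 13.5 and 11.01 CPM in parental cells. Cd34, the founding member, had 0 to 9 counts per library. The tyrosine sulfotransferases Tpst1 and Tpst2, which sulfate selectin ligands, were at medians of 59.4 and 15.6 CPM over the 11 libraries.

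Rasd2 and Diras2 belong to the Ras subfamily of small GTPases, of which 34 of 35 listed genes were in the table and 29 were tested. With sonidegib against parental cells 0 of 29 changed in edgeR, where 0.0652% of all genes did. An unadjusted p under 0.05 was reached by 6, Rasd2 and Diras2 among them, where 14% of all genes reached it. A positive log2 difference was seen for 23 of 29, with a median of 0.28 where all genes had 0.04. Rasd2 had the highest value of the 29 and Diras2 the fourth. Both were chosen for high levels in the sonidegib libraries, so nothing is read from these places. The counts and the median over the 29 include both genes. Rem2, a Ras-like regulator of calcium channels, was at 1.31 ± 0.49 (edgeR adjusted p = 0.334), with means of 9.49 CPM with sonidegib and 3.82 CPM in parental cells. Rasl10a was at 1.40 ± 0.68 (0.396), at low means of 2.11 and 0.80 CPM. Mras, a relative of the classical Ras proteins, was at the other end, at -1.39 ± 0.29 (adjusted p = 0.130), with 36.8 CPM on average with sonidegib and 95.9 CPM in parental cells. In Ofd1 and Sufu clones the median over the family was -0.03 and 0.02. In each 0 of 29 changed, where 0.363% and 0% of all genes did.

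The closest paralogs of the 2 GTPases did not share their levels. Diras1 stood at 16.7 and 10.6 CPM with sonidegib against 12.1, 11.4 and 17.0 CPM in parental cells, a log2 difference of 0.01 ± 0.35, and at 4.98 to 8.78 CPM in the Ofd1 clones and 13.7 and 5.49 CPM in the Sufu clones. Its groups overlapped except that every Ofd1 library was below every parental and every sonidegib library. Rasd1, which is induced by glucocorticoids, had 2 to 10 counts per library and did not reach the level needed for the test.

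**Figure D4:**
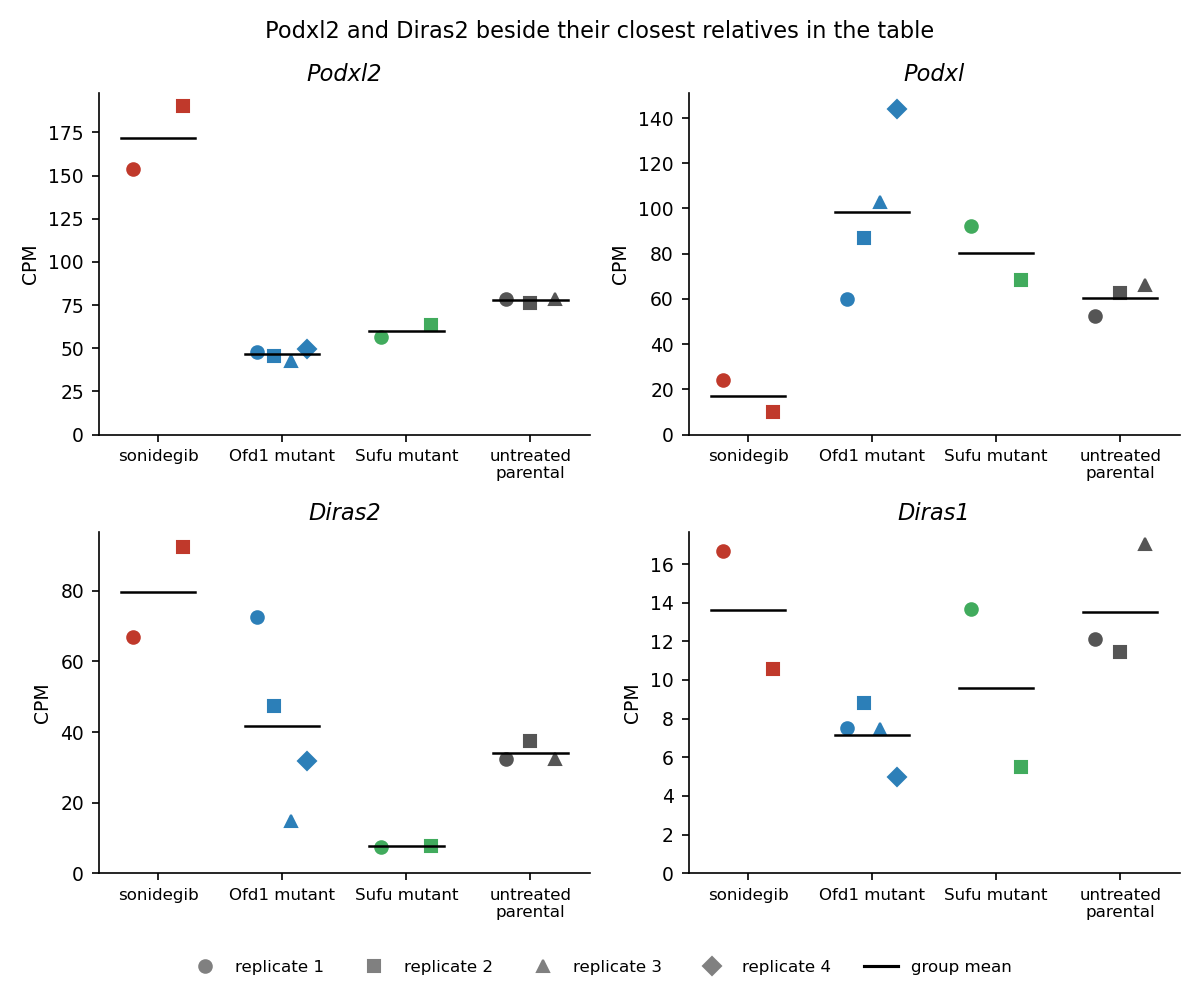
Levels in CPM (vertical axes, starting at 0) of Podxl2 beside Podxl and of Diras2 beside Diras1 in each of 11 libraries, by group; points are libraries and lines are group means. Podxl is lowest with sonidegib, at 24.3 and 10.2 CPM, and Diras1 with sonidegib lies within the parental range at its upper library and below it at 10.6 CPM.

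Trnp1 takes its name from Tmf1, a Golgi-associated protein. Tmf1 averaged 109 ± 6.44 CPM with sonidegib, 103 ± 5.43 CPM in Ofd1 clones, 104 ± 26.8 CPM in Sufu clones and 115 ± 8.28 CPM in parental cells, and its groups overlapped. The list of Tmf1 and BAF chromatin remodelling subunits had a median log2 difference of -0.02 with sonidegib, -5.14e-05 in Ofd1 and -0.12 in Sufu clones against parental cells. In each 0 of 15 changed by edgeR, where 0.0652%, 0.363% and 0% of all genes did. Neuronal differentiation genes had a median of 0.31 with sonidegib, and 0 of 27 changed, where 0.0652% of all genes did. In Ofd1 clones against parental cells edgeR called 1 of 27 higher and 1 lower, where it called 0.181% of all genes in each direction. The calcium sensor Syt1, called higher, averaged 144 against 36.6 CPM. The neurofilament gene Ina, called lower, averaged 9.10 against 24.9 CPM, at a list median of 0.04. Neither passed with the R14 pair summed to 1 library (edgeR adjusted p = 0.0872 for each). Cell cycle genes had a median of -1.19 with sonidegib with 1 of 25 called lower, Cdc6, which loads the replicative helicase, where 0.0579% of all genes were called lower.

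The 4 genes varied together to unequal degrees over the 11 libraries. Pearson's r of log2(CPM + 1) was 0.917 between Trnp1 and Podxl2, 0.744 between Trnp1 and Rasd2, 0.738 between Trnp1 and Diras2, and 0.491 to 0.653 for the other pairs. The genes were chosen for being high in the same 2 libraries, which sets much of this. Among 10357 genes of at least 5 CPM, those most alike to Trnp1 were Eid1 (r = 0.979), Wdr13 (0.957) and Nadsyn1 (0.956). Eid1 is, like Trnp1, short, at 1691 bases, while Wdr13 has 5277 and Nadsyn1 3306 bases. Most alike to Podxl2 were Rnf135 (0.985), Ldb1 (0.970) and Ttc5 (0.967). Most alike to Rasd2 were Hey1 (0.953), Zscan2 (0.945) and Sesn1 (0.943), and to Diras2 Mcat (0.949), Tram1l1 (0.943) and Aacs (0.923).

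Hey1, a basic helix-loop-helix repressor, averaged 231 CPM with sonidegib, 80.1 CPM in Ofd1 clones, 37.8 CPM in Sufu clones and 55.4 CPM in parental cells, in the same order as Rasd2. Within the same ranked set, an r of 0.9 or more was reached by 124 genes for Trnp1, 79 for Podxl2, 14 for Rasd2 and 9 for Diras2. The genes most alike to the mean pattern of the 4 were Elmod3 (r = 0.963), Barhl1 (0.961), Orai2 (0.960), Tbc1d9b (0.955), Mfsd1 (0.955), Tmem159 (0.954), Cited2 (0.951), D10Jhu81e (0.950), Zfp647 (0.949) and Pou4f1 (0.949). Barhl1, a homeobox factor of the granule lineage, averaged 1063 CPM with sonidegib, 329 CPM in Ofd1 clones, 253 CPM in Sufu clones and 468 CPM in parental cells. Cited2, a transcriptional coregulator, averaged 364 CPM with sonidegib, 125 CPM in Ofd1 clones, 74.7 CPM in Sufu clones and 160 CPM in parental cells. None of these 10 changed in edgeR with sonidegib, where 0.0652% of all genes did, and their adjusted p ran from 0.0847 to 0.396. These likenesses describe 11 libraries sequenced in 1 run, and carry no p.

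**Figure D5:**
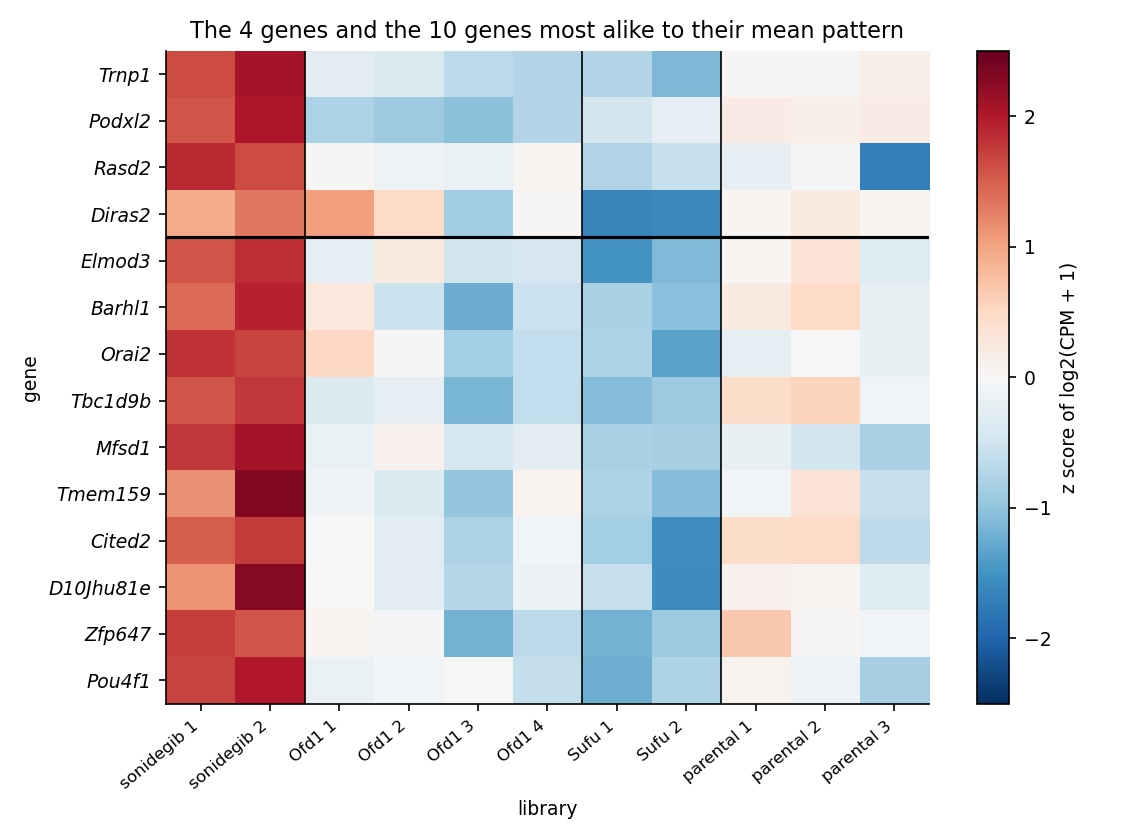
Z scores of log2(CPM + 1) (colour) in 11 libraries (horizontal axis, grouped from sonidegib to parental) for the 4 genes, above the line, and the 10 genes most alike to their mean pattern, below it, with r from 0.949 to 0.963. The sonidegib columns are highest in every row except that Ofd1 replicate 1 passes sonidegib replicate 1 for Diras2.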

How the data were processed

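Poly(A) RNA was measured in 11 libraries of SMB21 cells. The authors deposited raw counts of reads per gene symbol, 1 column per library; the submitters' processing notes name STAR, DESeq2 and build mm9. Tool versions and the read counter were not given in the sources used here. Libraries were stranded and read from 1 end at 75 bp on 1 run, per the labels' protocols. One of 22620 entries named no gene (0.0131% to 0.0192% of counts) and was left out.

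Levels are CPM on TMM-scaled library sizes. Groups were compared with edgeR 4.0.16 (R 4.3.3; robust quasi-likelihood test, filterByExpr, libraries of the 2 groups only, two-sided), adjusted by Benjamini-Hochberg over all genes tested, with a threshold of 0.05. DESeq2 1.42.0 was an alternative. The fits were tested on simulated data. Exon lengths came from GENCODE M21 (GRCm38) by symbol for 94.2% of 14306 genes; the trend of each library on log2 length was a lowess curve of span 0.3 over genes of at least 5 CPM. Promoter windows came from RefSeq (GRCm38.p6, a later build than mm9), and their motifs were picked after the sequences were seen.

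The 4 genes, the 13 gene lists (182 entries, 181 in the table) and the tests were chosen with earlier results of these data known. Named besides the 4 genes were their nearest relatives, the genes most alike in pattern (3 per gene and 10 for the mean) and list members that passed the test. Rem2, Rasl10a, Mras, Gfap, Gja1, Tpst1 and Tpst2 were named after their values were seen. Atoh1, Zic1, Zic2, Pax6, Pdgfra, Aqp4 and Mag also fall outside these rules, as picks from the marker lists. Replicates 1 and 2 of sonidegib and parental cells share only a number. Counts of reads without molecular identifiers carry more than counting error. Some results for 2 of the gene lists are not reported here.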

Additional observations from a re-analysis of the deposited data

How the results depend on the processing

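Counts of changed genes moved with the setting, in groups of 2 to 4 libraries. DESeq2 called 711 genes with sonidegib, 770 in Ofd1 and 326 in Sufu clones against parental cells and 267 between Ofd1 and Sufu, where edgeR called 9, 50, 0 and 1. Without the low-count filter edgeR called 109, 84, 3 and 2. One fit of all 11 libraries called 316 with sonidegib and 9 in Ofd1 clones, and the R14 pair summed to 1 library left 1 in Ofd1 clones and 0 between Ofd1 and Sufu. Leaving out 1 library gave 0 to 3263, 0 to 329, 0 to 11 and 0 to 11 in that order of comparisons.

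The 4 genes kept their direction under every alternative run, except Diras2 in Ofd1 clones (log2 difference -0.12 without Ofd1 replicate 1) and Rasd2 in Sufu clones (0.11 without parental replicate 2, and 0.0097 with the length trend removed). DESeq2 added calls for Trnp1 (2.13), Podxl2 (1.12), Rasd2 (2.16) and Diras2 (1.196) with sonidegib, Trnp1 in Ofd1 (-0.67) and Sufu clones (-1.19), Diras2 in Sufu clones (-2.16), and Rasd2 (0.60) and Diras2 (2.44) between Ofd1 and Sufu. No filter added Trnp1 with sonidegib (2.13) and Diras2 in Sufu clones (-2.17). The fit of all 11 added Trnp1 (2.16), Podxl2 (1.15) and Rasd2 (2.19) with sonidegib and lost Podxl2 in Ofd1 clones (-0.74), as did the summed R14 pair (-0.75). With the length trend removed Trnp1 moved to 1.76 with sonidegib and 2.56 against the clones, and Diras2 to -2.004 in Sufu clones. Sonidegib replicate 1 with parental replicates 1 and 2 gave 0.98 for Podxl2 and 0.92 for Diras2, and replicate 2 with parental replicate 3 gave 3.25 for Rasd2 and 1.49 for Diras2. The cause of these shifts was not tested.

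Leaving out 1 library gave, with sonidegib, 1.84 to 2.36 for Trnp1, 0.96 to 1.25 for Podxl2, 1.80 to 2.44 for Rasd2 and 0.95 to 1.40 for Diras2. In Ofd1 clones it gave -0.76 to -0.57, -0.77 to -0.70, 0.06 to 0.71 and -0.12 to 0.57 for the same genes, in Sufu clones -1.46 to -0.97, -0.46 to -0.30, -0.53 to 0.11 and -2.19 to -2.08, and between Ofd1 and Sufu 0.30 to 0.79, -0.46 to -0.30, 0.50 to 0.69 and 2.03 to 2.72. Against all clones it gave 2.69 to 3.23, 1.59 to 1.90, 1.82 to 2.05 and 1.15 to 1.87. A lone library left in a group was assumed to vary like the other group.

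With the replicate number as a block, sonidegib against parental cells called 97 genes, Trnp1 (2.20, edgeR adjusted p = 0.0163) and Rasd2 (1.82, adjusted p = 0.0289) among them. Deviations of same-numbered libraries from their group means had r = 0.250 for number 1 and -0.335 for number 2 across 10941 genes, so the numbers are not shown to pair the libraries.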
